A study of Homo sapiens with 3 samples.

Results

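HLA class I molecules carry peptides from inside the cell to its surface. The 10 genes described here were HLA-B, HLA-C, HLA-E and HLA-F, which encode class I heavy chains, B2M, which encodes their shared light chain, the peptide loading genes TAP1, TAP2, TAPBP and ERAP1, and NLRC5, which encodes the class I transactivator. They were chosen by name, out of 19775 genes that had a probe set of their own on the array, and every probe set that the platform's table gives to 1 of them alone was used. That made 30 of 54675 probe sets, of which 29 passed a filter on low values (above 3.47, the 20th percentile of the values, in at least 1 array). Gene expression had been measured on Affymetrix arrays in SupB15, a BCR-ABL positive line of childhood B-cell precursor acute lymphoblastic leukemia (ALL) that the labels call drug sensitive (1 array), and in its multiple drug resistant subline SupB15-MR (2 arrays, labelled as biological replicates). Both were grown in RPMI1640 medium with fetal bovine serum. According to the methods, SupB15-MR arose from SupB15 cells that survived mitoxantrone in medium conditioned by the bone marrow stromal line HS-5 and were then kept without drug. The description of replicate 2 names SupB15-MR5, a name given in the source publication to a single resistant clone, whereas the other description has only the name of the subline. The source publication describes its expression profiles of SupB15-MR as coming from 2 clones. The labels do not say that the replicates are these clones or separate cultures. The spread between them may therefore hold differences between clones, technical variation or both. The comparison asks how the resistant cells differ from the parent line.

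Peptides made by the proteasome in the cytosol are pumped into the endoplasmic reticulum by the TAP1-TAP2 transporter. There tapasin, the product of TAPBP, holds empty class I molecules next to the transporter, and the aminopeptidase ERAP1 trims peptides to a length that fits. A heavy chain without B2M and peptide mostly stays inside the cell, which holds less strictly for some class I chains. HLA-B and HLA-C present peptides to cytotoxic T cells and bind receptors of natural killer cells, HLA-E presents peptides from the leader sequences of other class I chains to natural killer cells, and HLA-F is a less variable chain with a restricted pattern of expression. In lymphoid cells NLRC5, NF-kappaB and interferon regulatory factors act on the promoters of class I genes, of B2M and of several loading genes.

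Promoters of 8 of the 10 genes were found in the RefSeq windows (GRCh38.p14) of 250 bases before to 50 after each start. No window was matched for HLA-E or NLRC5. The 200 bases before the start are shown for 3 heavy chain genes and B2M, whose probe sets include ones that were lower in SupB15-MR, and for TAP1, whose only probe set was less than 2-fold apart. B2M also had a probe set that was called higher, at 2.94 on the log2 scale. Capitals mark matches, on either strand, to the NF-kappaB consensus, to the interferon response element (GAAA, 2 bases of any kind, GAAA) or, with shorter spacing, GAANNGAAA, to the core of the cyclic AMP response element, TGACG, and to the Y box letters CTGATTGG.
HLA-B, chr6:31357180-31357379, minus strand: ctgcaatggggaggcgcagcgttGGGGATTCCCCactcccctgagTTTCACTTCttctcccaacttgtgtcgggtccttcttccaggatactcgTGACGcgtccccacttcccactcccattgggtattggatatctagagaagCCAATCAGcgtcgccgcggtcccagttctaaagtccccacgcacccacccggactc
HLA-C, chr6:31272093-31272292, minus strand: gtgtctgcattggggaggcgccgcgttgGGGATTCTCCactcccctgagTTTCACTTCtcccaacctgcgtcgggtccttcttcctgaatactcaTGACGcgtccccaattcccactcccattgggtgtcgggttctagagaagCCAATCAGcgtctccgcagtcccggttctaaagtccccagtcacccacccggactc
HLA-F, chr6:29723234-29723433, plus strand: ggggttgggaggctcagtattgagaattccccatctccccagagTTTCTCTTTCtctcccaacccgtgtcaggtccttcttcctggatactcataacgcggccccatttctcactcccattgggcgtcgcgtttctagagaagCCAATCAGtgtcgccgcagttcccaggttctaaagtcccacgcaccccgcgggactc
B2M, chr15:44711317-44711516, plus strand: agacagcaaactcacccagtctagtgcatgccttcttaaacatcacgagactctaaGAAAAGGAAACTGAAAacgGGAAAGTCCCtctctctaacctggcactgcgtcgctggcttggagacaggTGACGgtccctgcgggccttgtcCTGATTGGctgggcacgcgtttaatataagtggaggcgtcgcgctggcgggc
TAP1, chr6:32853705-32853904, minus strand: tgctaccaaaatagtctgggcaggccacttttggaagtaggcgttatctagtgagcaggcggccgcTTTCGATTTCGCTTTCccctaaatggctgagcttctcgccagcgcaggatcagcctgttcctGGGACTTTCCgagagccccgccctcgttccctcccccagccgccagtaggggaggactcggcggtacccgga
The windows of HLA-B and HLA-C were 87.7% identical over the aligned bases, and that of HLA-F was 80.8% identical to HLA-B and 80.2% to HLA-C. The Y box letters were found in 4 of the 8 genes, HLA-B, HLA-C, HLA-F and B2M, and in 3.81% of all 35116 windows. The NF-kappaB consensus was found in 6 of the 8, against 9.96% of all windows, and the interferon response element in 5 of the 8 (HLA-F, B2M, TAP1, TAP2 and TAPBP), against 3.02%. The shorter spacing was found in HLA-B, HLA-C, TAP2 and ERAP1 and in 6.56% of all windows, and TGACG in HLA-B, HLA-C, B2M and TAP2 and in 21.22%. All shares count the 250 bases before the start. A gene was counted where any of its windows matched, whereas the shares are of single windows. TAP1 and ERAP1 had more windows than the other genes, which makes a match in them likelier. Matches of the interferon letters overlap each other in TAP1, B2M, TAPBP and TAP2, and those of NF-kappaB in HLA-B. These letters describe the windows and do not show binding.

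The arrays differed as wholes, and this touches every value below. The deposited values are log2 expression values after RMA, with a median of 5.08 in SupB15 against 5.27 and 5.28 in the resistant arrays. Centring the arrays lowers every difference below by 0.19. Both resistant arrays had the same value for 42.7% of probe sets (5 of the 30 described here), and correlated across probe sets at r = 0.995 with each other and at 0.841 with SupB15. The 3' probe set of the ACTB control was 0.80 above the 5' one in SupB15, and 2.59 and 2.43 above it in the resistant arrays, while for GAPDH this gap was 0.10 in SupB15 and -0.09 and -0.11 in the others. The control probe sets themselves were lower in SupB15-MR, with a median of 13.4 against 12.2 and 12.5 for ACTB and of 13.5 against 12.1 and 12.2 for GAPDH. The part of these shifts in the results was not tested. SupB15 had 1 array and no spread of its own. A permutation of 1 array against 2 has 3 splits and cannot give an exact two-sided p under 0.333. The limma test used here takes its spread from the SupB15-MR arrays alone, so its p-values hold no variation between SupB15 cultures. A probe set was called where it differed at least 2-fold at an adjusted p of at most 0.05. Fewer cells with a transcript and less of it per cell cannot be told apart in bulk RNA. As a check of the cell type, 11 of 11 measured B precursor markers had a value above 8 in SupB15 and 9 of 11 in both SupB15-MR arrays, all but VPREB1 and CD34. None of 8 T cell markers did in any of the arrays. Among 8 monocyte and granulocyte markers none passed 8 in SupB15 or in both SupB15-MR arrays, although MPO had 8.2 in replicate 1, and of 10 stromal markers THY1 alone did, with 8.14 in SupB15 and less in SupB15-MR.

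All 13 probe sets of the 4 heavy chain genes were lower in both SupB15-MR arrays than in SupB15. Of these, 11 were at least 2-fold lower in both, 8 were called lower and none was called higher. Over all 30 probe sets, 10 were called lower and 4 higher, and 13 were at least 2-fold lower and 4 at least 2-fold higher in both SupB15-MR arrays. Of all 46034 probe sets tested, 9.71% were called lower and 13.1% higher, and 15% were at least 2-fold lower and 18.3% at least 2-fold higher in both. The heavy chain probe sets had a median log2 difference of -1.64, between -2.46 and -0.52, where the median over all probe sets tested was 0. High values in SupB15 went with lower ones in SupB15-MR over the array as a whole, and their part in these counts was not tested. Of 4304 probe sets with a SupB15 value of at least 9, 33.8% were at least 2-fold lower in both and the median difference was -0.57. Of the 12 heavy chain probe sets with such a value, 11 were at least 2-fold lower in both.

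**Figure D1:**
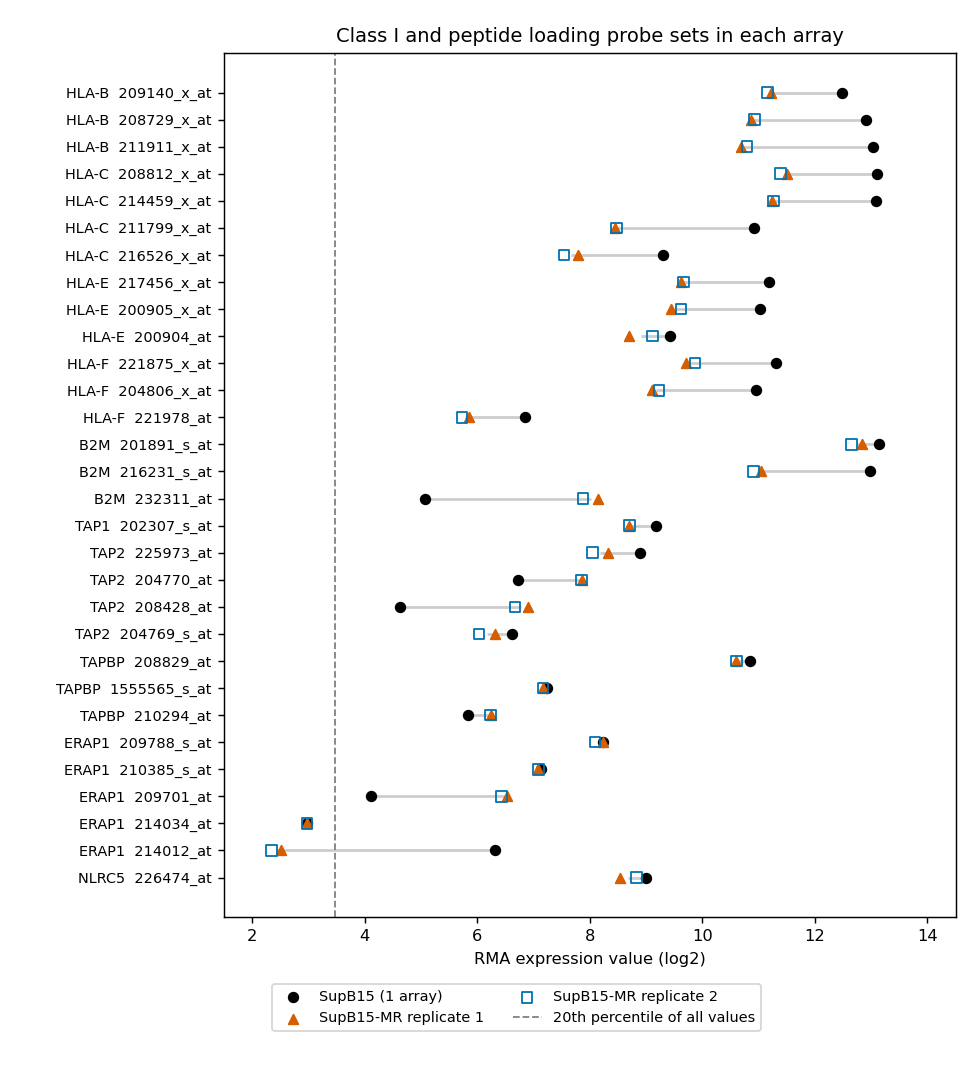
RMA expression value (log2, horizontal axis) of all 30 probe sets in the SupB15 array (black circles) and in SupB15-MR replicate 1 (triangles) and replicate 2 (squares), with a grey line from SupB15 to the SupB15-MR mean and a dashed line at 3.47 (the 20th percentile of the values). In every row of HLA-B, HLA-C, HLA-E and HLA-F both SupB15-MR arrays lie to the left of SupB15, whereas B2M, TAP2 and ERAP1 have rows on either side.

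HLA-B, a classical heavy chain gene on chromosome 6, fell on each of its 3 probe sets. Probe set 211911_x_at had 13.03 in SupB15 and 10.69 and 10.79 in SupB15-MR. Both resistant arrays lay more than 2 units below the parent, a log2 difference of -2.28 (standard error 0.078, adjusted p = 0.0208 from limma) or 4.87-fold lower. Probe set 208729_x_at had 12.91 in SupB15 and 10.86 and 10.93 in SupB15-MR (log2 difference -2.02, adjusted p = 0.0161 from limma). The smallest difference was that of 209140_x_at, with 12.48 in SupB15 and 11.22 and 11.16 in SupB15-MR (-1.29, standard error 0.0492, adjusted p = 0.0234 from limma). The last has the highest mean over the 3 arrays and therefore stands for the gene in counts of genes. Taken on the probe set with the highest value in SupB15 the difference of HLA-B is -2.28.

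HLA-C, the other classical heavy chain gene described, was lower on all 4 of its probe sets and was called on 3. The probe set with the highest mean, 208812_x_at, had 13.10 in SupB15 and 11.50 and 11.39 in SupB15-MR, a log2 difference of -1.65 (standard error 0.0855, adjusted p = 0.0319 from limma). The largest difference was on 211799_x_at, with 10.92 in SupB15 and 8.45 and 8.48 in SupB15-MR (-2.46, standard error 0.0193, adjusted p = 0.00411 from limma), 5.51-fold lower. Probe set 214459_x_at fell by 1.84 on the log2 scale, from 13.09 to 11.23 and 11.27. The fourth probe set, 216526_x_at, had 9.30 in SupB15 and 7.79 and 7.54 in SupB15-MR, and did not pass the test (-1.64, adjusted p = 0.071 from limma). No SupB15-MR value came near that of SupB15 on any of the 4, and the gap was larger than the spread between the SupB15-MR arrays.

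HLA-E, whose product is read by natural killer cells, had 11.18 in SupB15 and 9.62 and 9.66 in SupB15-MR on 217456_x_at, the one of highest mean, and was called lower (-1.53, standard error 0.0294, adjusted p = 0.0112 from limma). Probe set 200905_x_at had 11.02 and then 9.43 and 9.62 (-1.49, adjusted p = 0.0583 from limma, not called). The probe set without a suffix, 200904_at, had 9.42 in SupB15 and 8.69 and 9.12 in SupB15-MR, a log2 difference of -0.52 (standard error 0.321, adjusted p = 0.383 from limma). Here the SupB15-MR arrays differed from each other by more than replicate 2 differed from SupB15. On the mean over its probe sets HLA-E was no longer called (-1.18, adjusted p = 0.078 from limma).

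HLA-F fell on 204806_x_at, from 10.96 in SupB15 to 9.10 and 9.23 in SupB15-MR (-1.79, standard error 0.0978, adjusted p = 0.0336 from limma). On the probe set with the highest mean, 221875_x_at, the values were 11.31 in SupB15 and 9.70 and 9.87 in SupB15-MR. That difference of -1.53 missed the threshold narrowly (standard error 0.127, adjusted p = 0.0509 from limma), so that HLA-F is not among the genes called. It passed in limma with the arrays centred on their medians (adjusted p = 0.016), without identical values and with the prior from differing values. The mean over the probe sets of HLA-F passed too (-1.46, adjusted p = 0.0191 from limma). It did not pass without the filter, with the filter applied to all 3 arrays or by the analysis of variance (adjusted p = 0.163). Probe set 221978_at, without a suffix, had 6.84 in SupB15 and 5.84 and 5.73 in SupB15-MR (-1.06, adjusted p = 0.0515 from limma). The antisense gene HLA-F-AS1 had a value of 5.45 in all 3 arrays on 1 probe set and values from 2.49 to 2.66 on the other, below the 20th percentile of all values.

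Of the 13 heavy chain probe sets, 11 end in x_at, which marks probe sets with probes that also match other transcripts, and class I genes are close in sequence. A value on such a probe set can hold signal of several class I genes. All 11 were at least 2-fold below SupB15 in both resistant arrays, with log2 differences from -2.46 to -1.29 and a median of -1.65. The other 2, of HLA-E and HLA-F, had -0.52 and -1.06, and neither was called. Over the whole array 3799 probe sets tested end in x_at, and 16.5% of them were at least 2-fold below SupB15 in both resistant arrays, with a median difference of 0.

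**Figure D2:**
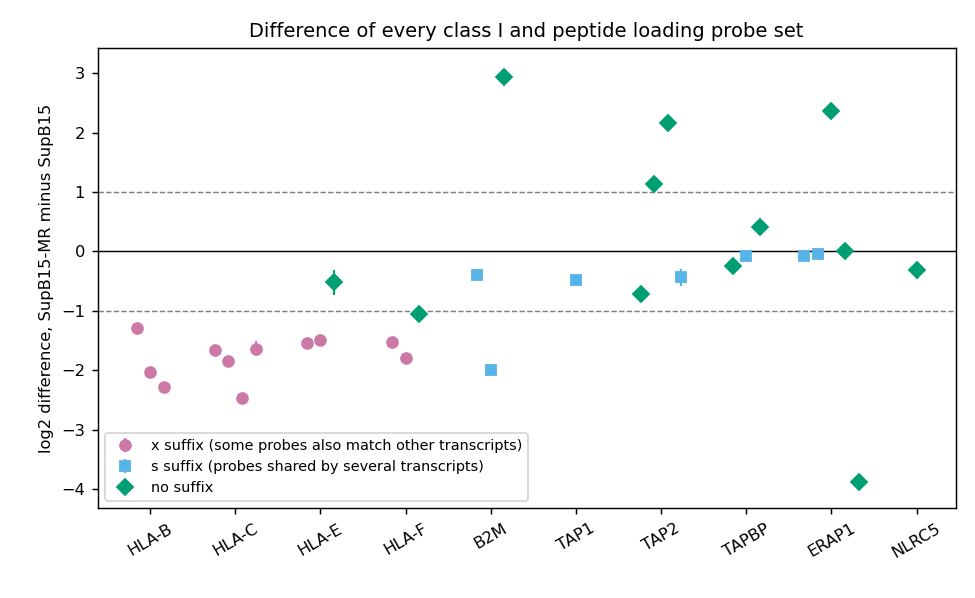
Log2 difference between SupB15-MR and SupB15 (vertical axis) for each probe set of the 10 genes, as the mean of both SupB15-MR arrays with bars from the lower to the higher array, and dashed lines at 2-fold. Circles mark the x suffix, squares the s suffix and diamonds probe sets without a suffix. All circles lie between -2.46 and -1.29, and the largest differences in both directions are diamonds, of B2M and ERAP1.

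B2M, the light chain of every molecule above, had probe sets that went different ways. On 201891_s_at, with the highest mean, the values were 13.14 in SupB15 and 12.83 and 12.65 in SupB15-MR, a log2 difference of -0.40 that did not pass (standard error 0.134, adjusted p = 0.208 from limma). On 216231_s_at they were 12.97 in SupB15 and 11.03 and 10.91 in SupB15-MR (-1.94 and -2.06 below SupB15, standard error 0.0942, adjusted p = 0.029 from limma), called lower. On 232311_at they were 5.07 in SupB15 and 8.15 and 7.88 in SupB15-MR, called higher (2.94, standard error 0.203, adjusted p = 0.0424 from limma). The 3 probe sets differed from each other by more than the resistant arrays did on any of them. The direction for the gene as a whole depends on the probe set, and the parts of its transcript that the 3 probe sets read were not compared here.

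Both subunits of the peptide transporter were lower without being called on the probe sets with the highest mean, and the probe sets of TAP2 were split. TAP1 had 9.18 in SupB15 and 8.70 and 8.71 in SupB15-MR on its only probe set, a log2 difference of -0.47, under 2-fold (standard error 0.00178, adjusted p = 0.00185 from limma). Its SupB15-MR values were nearly equal, which makes this p small. The adjusted p was 0.052 with the limma prior from differing values and 0.143 from the analysis of variance. TAP2 had 8.89 in SupB15 and 8.32 and 8.05 in SupB15-MR on 225973_at, its probe set with the highest mean (-0.71, adjusted p = 0.178 from limma). On 204769_s_at it had 6.61 and then 6.31 and 6.03 (-0.44, adjusted p = 0.303 from limma). The remaining 2 probe sets were called higher. Probe set 204770_at had 6.73 in SupB15 and 7.86 in both SupB15-MR arrays (1.13, adjusted p = 0.00155 from limma), a difference that is under 2-fold at 0.94 after centring, and 208428_at had 4.62 and then 6.90 and 6.67 (2.16, standard error 0.173, adjusted p = 0.0491 from limma). The probe sets that were lower in SupB15-MR were not called and those that were called were higher, so no single direction describes TAP2.

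TAPBP, which encodes tapasin, was under 2-fold apart on all 3 of its probe sets, each with identical values in the SupB15-MR arrays. They had 10.85 in SupB15 and 10.60 in SupB15-MR, 7.23 and 7.16, and 5.83 and 6.24, log2 differences of -0.25, -0.07 and 0.41. A small limma p on identical values says little, and none of them was called.

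ERAP1, the trimming aminopeptidase, had 5 probe sets that covered the widest range. The 2 with the highest means were close to SupB15. On 209788_s_at SupB15 had 8.24 and the SupB15-MR arrays had 8.24 and 8.09 (-0.07, standard error 0.113, adjusted p = 0.687 from limma), and on 210385_s_at it was 7.12 and then 7.08 in both. Probe set 214012_at was called lower, with 6.31 in SupB15 and 2.50 and 2.34 in SupB15-MR (-3.88, standard error 0.125, adjusted p = 0.0196 from limma). Its SupB15-MR values lay under 3.47, the 20th percentile of all values, where values are near background. Probe set 209701_at was called higher, with 4.11 in SupB15 and 6.53 and 6.43 in SupB15-MR (2.37, standard error 0.0767, adjusted p = 0.0197 from limma). The fifth, 214034_at, had 2.97 in all 3 arrays and did not pass the filter. NLRC5, the class I transactivator, had 9.0 in SupB15 and 8.54 and 8.83 in SupB15-MR on its only probe set (-0.32, standard error 0.221, adjusted p = 0.424 from limma), and its SupB15-MR arrays lay apart from each other, at -0.46 and -0.17.

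With each gene read on the probe set with the highest mean, HLA-B, HLA-C and HLA-E were called lower, none of the 10 genes was called higher, and 4 were at least 2-fold below SupB15 in both resistant arrays, HLA-F being the fourth, and 0 were at least 2-fold higher. Of all 17530 genes tested, 9.05% were called lower and 11.8% higher, and 13.9% were at least 2-fold lower and 16.2% at least 2-fold higher in both. At an unadjusted p of at most 0.05 limma gave 4 genes at least 2-fold lower and 0 higher, and the analysis of variance gave 3 and 0. The median log2 difference was -0.59 over the 10 genes and 0 over all genes. The 17 probe sets of B2M, the loading genes and NLRC5 had a median of -0.07, with 2 called lower and 4 called higher.

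**Figure D3:**
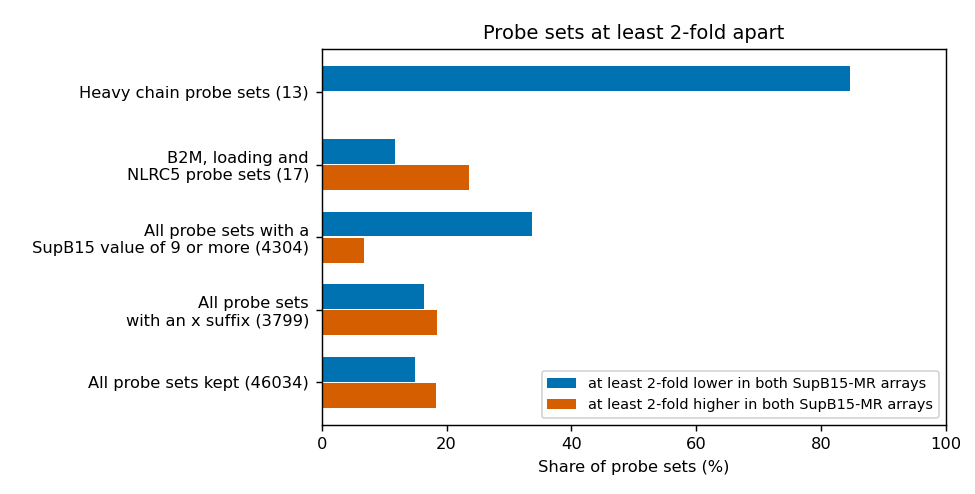
Share of probe sets (%, horizontal axis) that were at least 2-fold lower (blue) or higher (orange) than SupB15 in both resistant arrays (the number of sets is in brackets). Of the heavy chain probe sets 84.6% were lower and none higher. Of all probe sets with a SupB15 value of at least 9, 33.8% were lower and 6.78% higher.

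Other genes of the pathway were read from 7 lists with 1 probe set per gene, 66 genes tested in all. Of these, 8 were called lower, 5 higher and 53 were not called, with a median log2 difference of -0.05. Over all 17530 genes tested, 9.05% were called lower and 11.8% higher. The count of each list has to be read beside these shares, and single calls in short lists do not describe a pathway. Among 10 other class I and class I-like genes tested, 2 were called lower (4 with centred arrays, without identical values or with the limma prior from differing values) and none higher. HLA-G, a class I chain best known from the placenta, had 11.69 in SupB15 and 7.64 and 7.57 in SupB15-MR (-4.08, standard error 0.0521, adjusted p = 0.00716 from limma) and was called lower on all 4 of its probe sets, with differences from -4.08 to -1.41. The pseudogene HLA-J fell as well, from 9.93 to 7.69 and 7.62 (-2.27, adjusted p = 0.0152 from limma). All 5 probe sets of HLA-G and HLA-J carry the x suffix, so they may share signal with the genes above. HFE, a class I-like gene of iron metabolism, was not called on any of its 15 probe sets, which ranged from -0.93 to 0.78. CD1B and CD1C, which present lipids, had -2.31 and -1.26 and were not called (adjusted p = 0.0596 and 0.0902 from limma). Of 6 stress ligands, which are read by the NKG2D receptor of natural killer cells, 1 was called lower. MICA had 7.63 in SupB15 and 6.20 in both SupB15-MR arrays (-1.44, on identical values), whereas ULBP2 had -2.49 and ULBP3 1.60 without being called.

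Upstream of the transporter the lists moved in both directions. Of 9 proteasome genes 1 was called higher, PSME3, which encodes a proteasome activator (1.2, adjusted p = 0.0174 from limma), although another of its 4 probe sets had -0.69, and it was not called on the probe set with the highest value in SupB15 or on the mean. None was called lower. PSMB10, an immunoproteasome subunit, had 9.61 in SupB15 and 7.12 and 7.56 in SupB15-MR without passing (-2.26, adjusted p = 0.0888 from limma), and the other inducible subunits, PSMB8 and PSMB9, had -0.68 and 0.23. Of 9 peptidases, THOP1, which destroys peptides in the cytosol, fell by 3.41 on the log2 scale, from 8.45 to 5.05 and 5.03 (adjusted p = 0.00147 from limma), and TPP2, a large cytosolic peptidase, was called higher at 1.04 on identical values, which is under 2-fold after centring (0.85). NPEPPS, another cytosolic aminopeptidase, had 2.25 without passing (adjusted p = 0.079 from limma). ERAP2, the partner of ERAP1, had 1.16 on the one with the highest mean (adjusted p = 0.124 from limma), while 2 of its 5 probe sets were called lower.

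Of 10 assembly chaperones 2 were called lower and none higher on 1 probe set per gene. UGGT1, which checks the folding of new glycoproteins, had -0.01 on the one that stands for it, but 3 of its 5 probe sets were called higher and the mean over the 5 was 1.18. CALR, the chaperone calreticulin, had -1.06 without being called (adjusted p = 0.116 from limma). BCAP31, which helps class I molecules leave the endoplasmic reticulum, had 10.86 in SupB15 and 7.79 and 8.08 in SupB15-MR (-2.92, standard error 0.223, adjusted p = 0.0467 from limma), a call that was lost without the filter on low values. GANAB, a subunit of the glucosidase that trims new glycoproteins, fell on both of its probe sets, with -1.63 and -1.82. CANX, the lectin chaperone calnexin, had 1.42 without being called (adjusted p = 0.0843 from limma) although the mean over all 5 was 0.14. Of 15 tested genes that act on class I transcription, IRF9 (-1.50, adjusted p = 0.00275 from limma) and NFKB1 (-1.38, adjusted p = 0.0311 from limma) were called lower. RELA had -0.95 and was not called, but its other probe set, at -2.44, was called lower. NFYA had 0.69 and was not called, but 3 of its 6 probe sets were called higher. NFYC, a subunit of the factor that binds the Y box, was called higher at 2.68 with probe sets from -1.47 to 2.68. RFXAP was called higher at 1.81, and its other probe set, at -2.07, was called lower. NFKB2 had 1.25 without being called (adjusted p = 0.0743 from limma), and IRF1 had -0.77, under 2-fold. CREB1, which binds the cyclic AMP response element, had -1.04 without being called (adjusted p = 0.072 from limma). Of 7 interferon receptor and kinase genes IFNGR1 was called higher (2.23, adjusted p = 0.0226 from limma), and IFNGR2, the other chain of the same receptor, had -1.38 without being called.

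**Figure D4:**
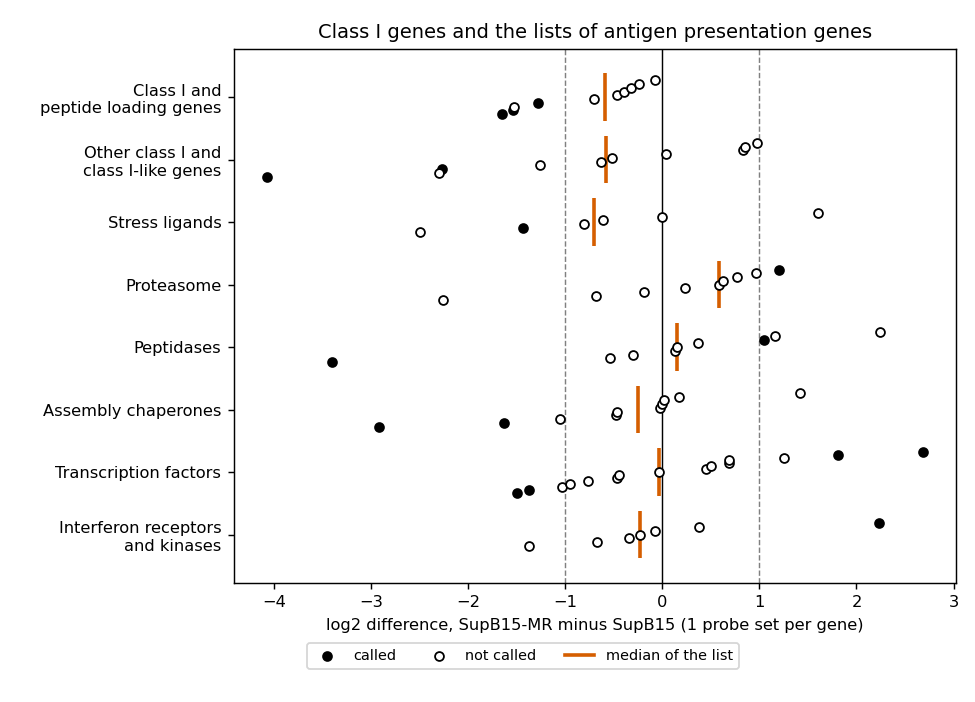
Log2 difference between SupB15-MR and SupB15 (horizontal axis, 1 probe set per gene) for the 10 class I and loading genes and the 7 lists of antigen presentation genes, with 1 point per gene tested, filled where the gene was called, an orange bar at the median of each list and dashed lines at 2-fold. The 10 genes of the top row all lie below 0 on these probe sets (B2M, TAP2 and TAPBP lie above 0 on the mean over their probe sets), and HLA-G lies farthest to the left at -4.08.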

How the data were processed

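Total RNA of SupB15 (n = 1) and SupB15-MR cells (n = 2) was amplified and labelled (NuGEN Ovation) and hybridized to Affymetrix HG133plus2 arrays by the authors. The deposited values are log2 expression values per probe set after RMA in apt-probeset-summarize (version not given in the sources used here). The precision is limited by the number of arrays, which carry no read depth.

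Of 54675 probe sets, 41097 have 1 gene in the platform table, 1801 several and 11777 none. Symbols were updated through Entrez numbers. A filter took out probe sets with no array above 3.47 (the 20th percentile over all values) and left 46034. The study's methods remove the lowest 20 percentile and use an analysis of variance, a p of at most 0.05 and a fold of at least 2. Here limma 3.58.1 in R 4.3.3 was fitted to all 46034 with 1 residual degree of freedom, eBayes and Benjamini-Hochberg adjustment, and the analysis of variance is an alternative. Identical SupB15-MR values were given a residual spread of 0, which lowers the prior SD to 0.00102, so that an adjusted p on identical or nearly identical values is no evidence by itself. The fit was also run on simulated arrays, which had the same spread in every array and no shift between arrays. That run therefore cannot vouch for the p-values given here.

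A gene was read on whichever of its probe sets had the highest mean over the 3 arrays, which leans towards SupB15-MR. All probe sets of the 10 genes are reported. Of the 7 lists, genes called or apart by 2-fold or more in each SupB15-MR array were named, together with others picked after their values were seen (CALR, CREB1, HFE, IRF1, NFYA, PSMB8, PSMB9, RELA, UGGT1 and HLA-F-AS1). The 10 genes, the lists and the motif letters were chosen with earlier results of these data known. The promoter windows and gene names come from RefSeq, GRCh38.p14. Alternatives were centring, the filter, the test, the limma prior, identical values, the probe set per gene and each SupB15-MR array left out.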

Additional observations from a re-analysis of the deposited data

How the results depend on the processing

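The number of genes called lower (3) was 3 or 4 under every alternative but the analysis of variance, and the number called higher (0) was 0 under all of them, by limma and by the analysis of variance. The analysis of variance of 3 arrays, which leaves out probe sets with identical SupB15-MR values, called 0 of the 10 genes and 0 of their probe sets lower, 0 of their probe sets higher, and 0 of all 27745 probe sets lower and 0 higher (2540 and 4238 past 2-fold and 0.05 before adjustment). Of the probe sets of the 10 genes, between 9 and 14 were called lower and 3 or 4 higher under the other alternatives. Over all probe sets, the number called lower (4470) was 7762 with centred arrays. It was 7471 with the prior of limma taken from probe sets whose SupB15-MR values differ. The number called higher (6021) was 6552 with centred arrays and 9005 with that prior. Centring took the share of calls that were higher from 57.4% to 45.8%, whereas with that prior more were called higher than lower. Without replicate 1 or replicate 2 of SupB15-MR, values have no test, and 4 genes were at least 2-fold lower and 0 higher either way (a range of 4 to 4 and of 0 to 0). The main count asks for 2-fold in both arrays, so leaving either out could add genes but not take any away. Of the 10 genes, HLA-B, HLA-C, HLA-E and HLA-F kept their direction under every alternative. So did TAP1 and NLRC5, which have a single probe set each and stayed under 2-fold. B2M (0.18), TAP2 (0.54) and TAPBP (0.03), none of them called, were above 0 on the mean over their probe sets. ERAP1 had a difference of 0 without replicate 2. The counts for the pathway lists moved too. With centred arrays, 4 other class I genes (2 before), 2 stress ligands (1), 1 proteasome gene (0), 3 chaperones (2), 4 transcription factors (2) and 1 interferon receptor gene (0) were called lower, and 1 chaperone (0) and 3 transcription factors (2) higher, and the analysis of variance called 0 in every list. RFXAP, called higher at 1.81, had -0.13 on the mean over its probe sets. No paired analysis was possible because SupB15 has 1 array. Where a call changed, the cause was not tested. The variation between SupB15 cultures was not measured.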

Other observations

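The class I and loading genes on chromosome 6 lie among many other genes. Between HLA-F and TAPBP, in the order of RefSeq, 102 other protein-coding genes were tested on 1 probe set each. Relative to SupB15, both resistant arrays were at least 2-fold lower for 13 of these and at least 2-fold higher for 20 (12 called lower and 13 higher by limma), and the median log2 difference was 0.003. These shares, 12.7% and 19.6% past 2-fold, lie near those over all genes, which were 13.9% lower and 16.2% higher (9.05% and 11.8% called). Without HLA genes, 90 remained, with 12 at least 2-fold lower and 16 higher and a median of 0. The lowest after HLA-G was AGPAT1, an acyltransferase of phospholipid synthesis, with 8.61 in SupB15 against 6.08 and 6.15 in the resistant arrays. The highest was PPP1R10, with 5.48 in SupB15 against 10.55 and 10.84 in the resistant arrays, and it was called higher. The cytokine genes TNF, with 6.12 in SupB15 and 9.11 and 8.2 in SupB15-MR, and LTB, with 6.21 and then 9.65 and 8.82, were among those at least 2-fold higher, and neither was called by limma (adjusted p = 0.167 and 0.126). These genes were picked after their values were seen.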
